A study of Homo sapiens with 6 samples.

Results

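Histone genes were described in THP1, a cell line from a monocytic acute myeloid leukaemia, cultured with or without a coated Notch ligand. The members were selected by gene symbol from the platform annotation: a probe set had to carry exactly 1 symbol, and the symbol had to follow the naming of the H1, H2A, H2B, H3 or H4 genes, the H2A variants Z, X and J, macroH2A or the separately numbered H3 genes. This gave 58 genes of 19775 measured. Of these, 54 are protein-coding in RefSeq, out of 85 coding genes there with such symbols, and 4 are not: the pseudogenes H1-9P, H2AC5P and H4C10P and the antisense RNA H1-10-AS1. The 54 were divided by name into 43 replication-linked genes (H1-1 to H1-6 and the H2AC, H2BC, H3C and H4C series) and 11 variant genes (H1-7, H1-8, H1-10, H2AJ, H2AX, H2AZ1, H2AZ2, H3-3A, H3-4, MACROH2A1 and MACROH2A2). The remaining coding histone genes, among them H3-3B, which also encodes H3.3, are not analysed here as members.

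In the study, 3 THP1 samples grew 48 hours on immobilised Dll4-Fc, a fusion of the Notch ligand Delta-like 4 with the Fc portion of an antibody, and were set against 3 samples labelled untreated, whose control plates the protocol describes as vehicle. The amount of ligand is 30 nM in the protocol but 60 nM in the sample labels. All samples were of 1 cell line, no well coated with Fc alone is labelled, and no genetic change is named in either group. By its title the series is about Notch signalling in the upkeep and maturation of leukaemia cells. Each sample was measured on 1 Affymetrix Human Genome U133 Plus 2.0 array after amplification of 5 ng of total RNA. No label says that the replicates were grown separately; the p-values then reflect sample-to-sample spread that may be technical.

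Histones are the proteins that package DNA into nucleosomes, and the linker histone H1 binds where DNA enters and leaves the nucleosome. Replication-linked histone genes lie mostly in clusters, lack introns and are transcribed in S phase, when new DNA has to be packaged; their mRNAs normally end in a stem-loop in place of a poly(A) tail. Some of them are known to give polyadenylated transcripts as well, also in cells that have stopped dividing. Variant histones such as H2A.Z, macroH2A and H3.3 come from separate, mostly intron-containing genes, are made through the whole cell cycle, and are placed at particular sites by dedicated chaperones.

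Most histone genes did not pass the test for a change with Dll4-Fc, and those that did were few. Among the replication-linked genes, 4 H2B genes were higher on Dll4-Fc (H2BC12, H2BC21, H2BC12L and H2BC5, by 1.27-fold to 1.69-fold), and a linker histone gene, H1-5, and an H4 gene, H4C8, were lower. Among the variants none was higher, and H2AZ2, MACROH2A2 and H1-10 were lower by 0.23 to 0.28 on the log2 scale. Differences are log2 intensities of the Dll4-Fc arrays minus those of the untreated arrays, ± is the standard error of a difference or, where stated, the SD of 3 arrays, and a gene passed when its limma p-value was under 0.05 after Benjamini-Hochberg adjustment across the 19775 genes.

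By that test 4 of 43 replication-linked genes were higher, 2 were lower and 37 did not pass, while 11.6% of all genes were higher and 15.0% lower. Of the 11 variant genes 0 were higher, 3 were lower and 8 did not pass. Of the 54 coding members 9 passed in either direction, against 26.6% of all genes, and the groups did not overlap for 20 of the 54, against 41.6% of all genes. The median difference was -0.05 over the replication-linked genes, 0.03 over the variant genes and -0.01 over all genes. None of the 4 members outside the coding genes passed; their differences lay between -0.17 and 0.10. The share that passed was below that of all genes for the replication-linked class and near it for the variant class.

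**Figure D1:**
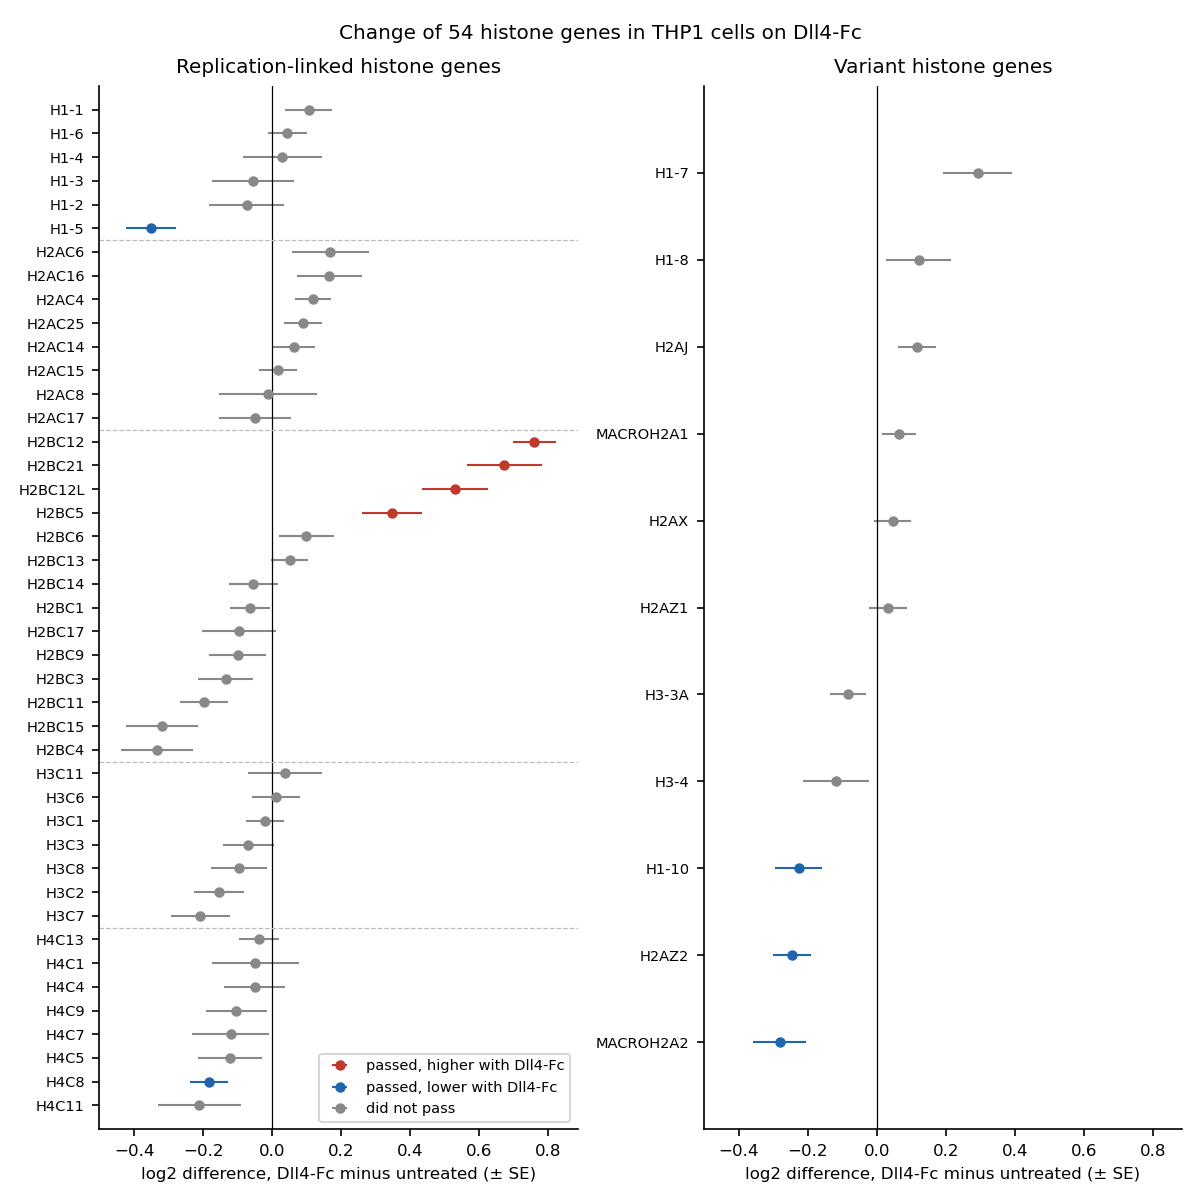
Difference of log2 intensity, Dll4-Fc minus untreated, for each of the 43 replication-linked (left, by family from H1 to H4, families separated by dashed lines) and 11 variant histone genes (right); points are limma estimates from 3 arrays per group and bars are their standard errors. The 4 genes higher on Dll4-Fc are all H2B genes, at 0.35 to 0.76, and the 5 lower genes lie between -0.18 and -0.35.

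The signal of many members was low. Of the 43 replication-linked genes 30 had a mean log2 signal at or below 5.69, the median of all probe sets, and 13 lay above it; of the 11 variant genes 2 lay at or below it and 9 above. In the whole table, 3.58% of genes at or below that median passed as higher and 3.54% as lower, against 16.0% and 21.3% of genes above it. Of the 13 brighter replication-linked genes 3 were higher and 0 lower; of the 30 dim ones 1 was higher (H2BC21) and 2 were lower (H1-5 and H4C8). For dim probe sets the size of a fold is uncertain. The normalization (RMA) sets the arrays to a common distribution, and a change in all histone RNA per cell together with other RNA is therefore not visible; fewer cells in S phase and less histone RNA per cell cannot be told apart.

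The H2B genes that were higher, and 2 replication-linked genes that were not, are shown with the sequence upstream of their start. Each stretch is the 130 bases before the RefSeq start (assembly GRCh38.p14), read 5′ to 3′ on the gene's strand. Capitals mark 3 motifs: the octamer ATTTGCAT, known from H2B promoters as a site for Oct-1, the CCAAT box (CCAAT, or ATTGG where it lies on the other strand) and the TATA box TATAAA. H2BC12, H2BC21 and H2BC5 are the members with a promoter entry that rose together, H2BC11 is a neighbour of H2BC12 that did not pass, and H1-5 is the linker histone gene that fell.
H2BC12 (chr6:27146859-27146988, minus strand): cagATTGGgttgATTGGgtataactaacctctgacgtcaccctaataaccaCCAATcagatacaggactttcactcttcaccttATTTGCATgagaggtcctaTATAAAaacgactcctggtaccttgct
H2BC11 (chr6:27132796-27132925, minus strand): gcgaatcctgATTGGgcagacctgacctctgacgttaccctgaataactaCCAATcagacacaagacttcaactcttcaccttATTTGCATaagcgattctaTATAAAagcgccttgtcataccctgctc
H2BC21 (chr1:149886683-149886812, minus strand): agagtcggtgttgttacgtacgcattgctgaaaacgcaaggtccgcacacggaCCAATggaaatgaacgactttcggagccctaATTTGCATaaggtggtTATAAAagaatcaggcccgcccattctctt
H2BC5 (chr6:26157991-26158120, plus strand): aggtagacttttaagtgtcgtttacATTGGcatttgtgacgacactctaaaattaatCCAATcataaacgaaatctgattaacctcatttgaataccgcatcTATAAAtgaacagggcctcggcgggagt
H1-5 (chr6:27867589-27867718, minus strand): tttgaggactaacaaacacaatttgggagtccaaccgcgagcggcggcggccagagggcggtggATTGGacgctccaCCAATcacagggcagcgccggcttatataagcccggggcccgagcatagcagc

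RefSeq promoter entries existed for 51 of the 54 coding members; H2BC12L, H3C11 and H4C1 had none. In the 250 bases upstream of the start, on either strand, the octamer was present in 10 of 13 replication-linked H2B promoters and 6 of 8 H2A promoters, in 0 of the H1, H3, H4 and variant promoters, and in 1.63% of 35116 promoters in the table. The CCAAT box was present in 13 of the 13 H2B promoters and 43 of all 51, against 32.0% of all promoters, and TATAAA in 11 of the 13 and 31 of the 51, against 10.7%. No motif contains another. Within the H2B family the octamer was in 2 of the 3 promoters of genes that rose and in 8 of 10 promoters of genes that did not pass, so its presence in this window did not separate them. The upstream stretches of H2BC12 and H2BC11 were identical at 102 of 132 aligned positions, and those of H2BC12 and H2BC21 at 82 of 145. A motif match is a description of the letters and not evidence of a bound factor.

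H2BC12, which encodes an H2B type of the large cluster on chromosome 6, had the largest rise among the members. Its log2 signal was 10.01, 10.02 and 9.96 on the Dll4-Fc arrays, against 9.31, 9.27 and 9.14 on the untreated arrays. The groups were well apart, with the lowest Dll4-Fc array far above the highest untreated one. The difference was 0.76 ± 0.06 or 1.69-fold (adjusted p = 0.000133, limma), and it passed under all 14 alternative settings, with values from 0.71 to 0.82. Its 1 probe set is not marked as shared between transcripts.

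H2BC12L, a close relative of H2BC12 outside the clusters on chromosome 21, had signals of 8.50, 8.48 and 8.69 on Dll4-Fc arrays, against 8.16, 8.06 and 7.86 on untreated arrays. All Dll4-Fc arrays again lay above all untreated ones, and the difference was 0.53 ± 0.10 (1.44-fold, adjusted p = 0.00566). Its only probe set is marked as shared between transcripts. H2BC12 and H2BC12L are nearly identical in sequence, so their signals cannot be told apart with certainty and should not be counted as independent.

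H2BC21, an H2B gene of the smaller cluster on chromosome 1, had signals of 5.80, 5.52 and 5.49 with Dll4-Fc and 4.76, 5.04 and 5.00 without it. The groups did not overlap, although the signals straddled the median probe set. The difference was 0.67 ± 0.11 (1.59-fold, adjusted p = 0.00351), and it passed in all 12 settings that measured it; its only probe set is a shared one and drops out with shared or dim probe sets. H2BC5, another H2B gene of chromosome 6, gave 7.61, 7.71 and 7.80 with Dll4-Fc, against 7.34, 7.51 and 7.22 without it, a difference of 0.35 ± 0.09 (1.27-fold, adjusted p = 0.0232). Its groups lay closer together, and its other probe set differed by -0.05 ± 0.09 (adjusted p = 0.815 over all probe sets). The call of H2BC5 was lost when Dll4-Fc replicate 2 (0.0682), Dll4-Fc replicate 3 (0.0729) or untreated replicate 1 (0.0674) was left out, with the mean of its probe sets (0.15, adjusted p = 0.113) or with the replicate block (0.0517).

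**Figure D2:**
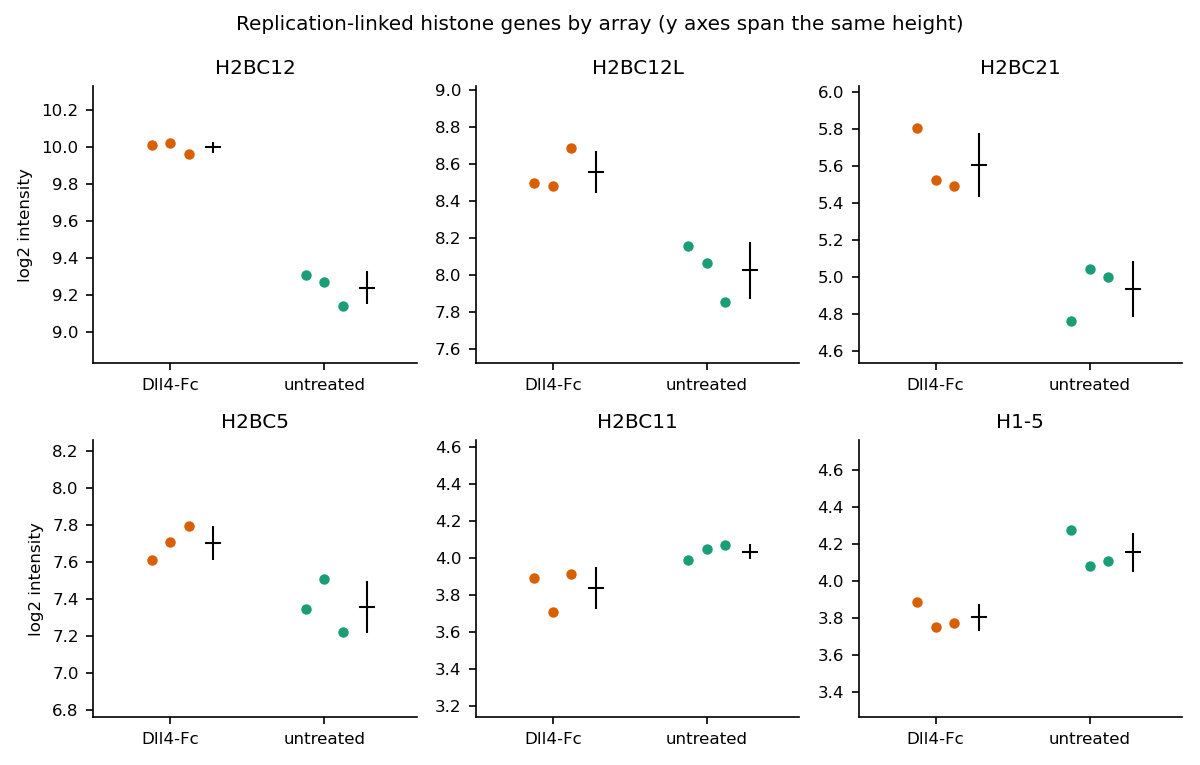
Log2 intensity on each array for 6 replication-linked genes; coloured points are the 3 Dll4-Fc (left) and 3 untreated (right) arrays, and the black mark with bar is the mean ± SD. H2BC12, H2BC12L, H2BC21 and H2BC5 lie higher on every Dll4-Fc array, while H1-5 lies lower and H2BC11 moves by -0.20 without passing.

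The other 10 replication-linked H2B genes did not pass, and they lay on both sides of 0, from -0.33 to 0.10. H2BC9 and H2BC6, with signals high enough to measure, differed by -0.10 ± 0.08 (adjusted p = 0.454) and 0.10 ± 0.08 (0.446). The largest negative differences were those of H2BC4, at -0.33 ± 0.10 (adjusted p = 0.051), and H2BC15, at -0.32 ± 0.10 (0.0587), both dim and both without overlap between the groups. H2BC4 passed as lower without untreated replicate 2 (-0.42, adjusted p = 0.0261) and H2BC15 without Dll4-Fc replicate 2 (-0.41, 0.0248). Both also passed as lower with the mean of probe sets (0.041 for H2BC4 and 0.0483 for H2BC15), median centring (0.0386 and 0.0354) and the trended robust prior (0.0324 and 0.0425), and H2BC15 under cyclic loess (0.0389). H2BC4 and H2BC15 were chosen for mention after their values were seen. The median over all 14 H2B genes was -0.06. Of the 14, 9 lay at or below the median probe set, where a change is poorly measured. A rise of the whole family was therefore neither shown nor excluded.

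Measured histone neighbours of H2BC12 and H2BC5 did not pass. The nearest measured histone genes on either side of H2BC12 were H2BC11, at -0.20 ± 0.07 (adjusted p = 0.0792), and H4C9, at -0.10 ± 0.09 (0.462). Around H2BC5 the nearest were H1-4, at 0.03 ± 0.11 (0.896), and H2BC6, at 0.10 ± 0.08. H2BC11, H4C9 and H1-4 lie below the median probe set, so their differences are poorly measured.

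H1-5, a main linker histone of dividing cells, was the replication-linked gene with the largest fall that passed. It had signals of 3.89, 3.75 and 3.77 on Dll4-Fc arrays, against 4.27, 4.08 and 4.11 on untreated arrays, a difference of -0.35 ± 0.07 (adjusted p = 0.0104). The groups did not overlap, and the call held in all 13 settings that measured it. All of these signals lie well below the median probe set. The other H1 genes of the cluster did not pass: H1-2, the brightest of them, differed by -0.07 ± 0.11 (adjusted p = 0.698), with 7.44, 7.33 and 7.41 on Dll4-Fc arrays and 7.58, 7.61 and 7.21 on untreated arrays, which overlapped.

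H4C8, which encodes histone H4, had signals of 4.26, 4.25 and 4.27 with Dll4-Fc and 4.40, 4.42 and 4.51 without it, a difference of -0.18 ± 0.05 (adjusted p = 0.0418). Its other probe set, which is specific by its name, gave 0.24 ± 0.09 (adjusted p = 0.118 over all probe sets), and the call was lost when any 1 of the 6 arrays was left out (adjusted p from 0.0642 to 0.123). Among the probe sets that name H4C8 alone, its fall therefore rests on 1 dim probe set. Outside these members, a bright probe set common to 14 H4 genes, H4C8 among them, passed as lower (-0.27). The others with the same symbols did not pass. They are described under other observations. On the probe sets used, all 8 H4 genes had negative differences, from -0.04 to -0.21, with a median of -0.11, and 1 passed as lower. Of the 8, 7 lay at or below the median probe set. Histone genes resemble each other closely, so the 8 may not be independent.

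None of the 8 replication-linked H2A genes and none of the 7 H3 genes passed, against 26.6% of all genes. Of these, 4 H2A and 5 H3 genes lay at or below the median probe set. In that range 3.58% of all genes passed as higher and 3.54% as lower. Outside these members, 2 probe sets common to H2AC18 and H2AC19 passed as higher (0.53 and 0.49) and another did not pass (-0.08). They are described under other observations. The H2A differences lay between -0.05 and 0.17, with a median of 0.08, and those of H3 between -0.21 and 0.04, with a median of -0.07. H2AC25, an H2A gene outside the large cluster, had signals of 8.11, 8.14 and 8.22 with Dll4-Fc and 8.10, 8.06 and 8.05 without it (0.09 ± 0.05, adjusted p = 0.297). H2AC14 gave 7.22, 7.26 and 7.21 with Dll4-Fc and 7.22, 7.22 and 7.06 without it (0.06 ± 0.06, adjusted p = 0.558). Both are among the 8 brightest genes of the class; the groups did not overlap for H2AC25 and overlapped for H2AC14.

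Of the H2A.Z genes, H2AZ2 was lower and H2AZ1 did not pass. H2A.Z marks promoters and other regulatory sites, and 2 genes, H2AZ1 and H2AZ2, encode nearly the same protein. H2AZ2 had signals of 12.17, 12.24 and 12.28 on Dll4-Fc arrays, against 12.51, 12.45 and 12.47 on untreated arrays, without overlap. The difference was -0.25 ± 0.05 (adjusted p = 0.0138). All 4 probe sets of H2AZ2 passed as lower in the fit over all 54675 probe sets, at -0.25, -0.37, -0.46 and -0.45, where 9.25% of probe sets were lower and 7.21% higher. The call was lost when Dll4-Fc replicate 1 was left out (-0.22, adjusted p = 0.0629) or with the replicate block (0.0604).

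H2AZ1 had signals of 14.03, 13.99 and 14.01 on Dll4-Fc arrays and 13.90, 14.01 and 14.01 on untreated arrays, which overlapped. Its difference was 0.03 ± 0.06 (adjusted p = 0.732), and its other probe set gave 0.00 ± 0.06. These are among the highest signals on the array, where a probe set may respond less than in proportion. Set against H2AZ1 on the same array, H2AZ2 differed by -0.28 ± 0.06 between groups, with an exact permutation p of 0.1 (2-sided, and 0.1 adjusted over the 3 pairs compared). That is the smallest p that 3 arrays against 3 can give, so a difference in response between the genes was not shown.

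MacroH2A carries a large extra domain and is linked to silent chromatin. MACROH2A2 had signals of 7.66, 7.72 and 7.63 with Dll4-Fc, against 8.08, 7.81 and 7.96 without it, a difference of -0.28 ± 0.08 (adjusted p = 0.0323). The groups did not overlap, but the call was lost without any array other than untreated replicate 2 (adjusted p from 0.0643 to 0.0982). With all arrays it was also lost under cyclic loess (-0.21, adjusted p = 0.0926), array weights (0.0535) and the replicate block (0.0732). MACROH2A1, the other macroH2A gene, had 13.58, 13.57 and 13.60 with Dll4-Fc and 13.51, 13.49 and 13.55 without it, a difference of 0.07 ± 0.05 (adjusted p = 0.414), and none of its 7 probe sets passed, though its groups did not overlap. Set against MACROH2A1, which is also very bright, MACROH2A2 differed by -0.35 ± 0.08 between groups (exact permutation p = 0.1, again the smallest possible, and 0.1 adjusted over the 3 pairs), so a difference in response was not shown here either.

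H1-10, a linker histone made independently of replication, had signals of 9.91, 9.89 and 9.95 with Dll4-Fc and 10.26, 10.13 and 10.04 without it. The arrays did not overlap, and the difference was -0.23 ± 0.07 (adjusted p = 0.0477), just inside the threshold. The call was lost without any array other than untreated replicate 3 (adjusted p from 0.0807 to 0.137), and without untreated replicate 1 the difference was -0.17. It was also lost under cyclic loess (-0.17, adjusted p = 0.0732), median centring (0.0672) and the replicate block (0.104).

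The remaining variants did not pass. The phosphorylated form of H2AX marks DNA breaks. H2AX had 12.18, 12.26 and 12.25 with Dll4-Fc and 12.21, 12.19 and 12.15 without it (0.05 ± 0.05, adjusted p = 0.606). Its other, dimmer probe sets gave -0.20 ± 0.07 (limma adjusted p = 0.0778 over all probe sets, no overlap), -0.04 and -0.01. H2AJ is a mammalian H2A variant reported in senescent cells. It had 10.68, 10.63 and 10.66 with Dll4-Fc, against 10.60, 10.50 and 10.52 without it (0.12 ± 0.05, adjusted p = 0.175). Its 4 probe sets differed in sign: the bright ones gave 0.12 and 0.14, the dim ones -0.15 and -0.14. Under cyclic loess H2AJ passed as higher (0.17, limma adjusted p = 0.049). H3-3A, which encodes the replacement histone H3.3, had 7.59, 7.62 and 7.67 with Dll4-Fc and 7.71, 7.69 and 7.73 without it (-0.08 ± 0.05, adjusted p = 0.301). The probe sets common to H3-3A and H3-3B, described under other observations, were all brighter. Their mean log2 signals on the untreated arrays ran from 9.46 to 14.51. The groups overlapped for H2AX and not for H2AJ or H3-3A.

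Members known from germ cells lay near or below the median probe set. H1-7, a testis linker histone, gave 5.39, 5.38 and 5.45 with Dll4-Fc and 5.26, 4.88 and 5.20 without it (0.29 ± 0.10, adjusted p = 0.0725). H1-7 passed as higher with untreated replicate 1 left out (0.37, adjusted p = 0.0487) and, with all arrays, under array weights (0.39, limma adjusted p = 0.0186). H1-8, the oocyte linker histone, differed by 0.12 ± 0.09 (0.418) and H3-4, the testis H3, by -0.12 ± 0.10 (0.449). The testis genes H2BC1 and H1-6, of the replication-linked class, differed by -0.07 ± 0.06 and 0.04 ± 0.06 and did not pass.

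**Figure D3:**
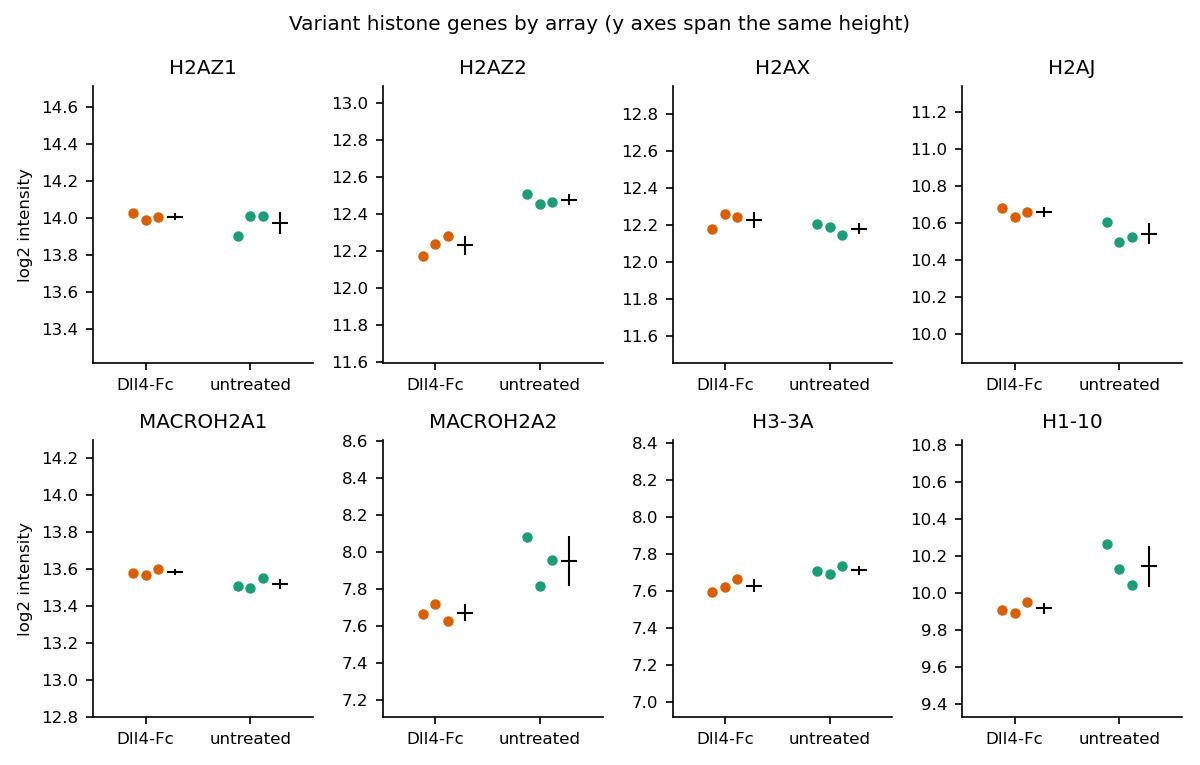
Log2 intensity on each array for 8 variant histone genes; coloured points are the 3 Dll4-Fc (left) and 3 untreated (right) arrays, and the black mark with bar is the mean ± SD. H2AZ2, MACROH2A2, H1-10 and H3-3A lie lower on every Dll4-Fc array, and of these H3-3A did not pass. H2AZ1 and MACROH2A1 differ by 0.03 and 0.07 and did not pass.

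For each array the median over a class of the deviation from the gene's untreated mean was -0.04, 0.00 and -0.01 for the replication-linked genes with Dll4-Fc, against 0.07, 0.01 and -0.03 without it. For the variant genes it was 0.00, 0.02 and 0.03 with Dll4-Fc and 0.03, -0.02 and 0.02 without it. The arrays of the groups overlapped in both classes.

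Genes that supply histones were also read out, in 3 lists chosen with earlier results of these data known. All 48 measured genes of these lists had a signal above the median probe set. By the same test 21 of the 48 were lower, 1 was higher and 26 did not pass, with a median difference of -0.18 against -0.01 over all genes; among all genes above the median signal 21.3% were lower. The number lower was 10 without Dll4-Fc replicate 1, 11 without Dll4-Fc replicate 2, 10 without untreated replicate 2 and 11 with the replicate block.

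The first list holds the machinery that transcribes and processes replication-linked histone mRNA. Of 15 measured genes 6 were lower and 1 was higher, with a median of -0.20. LSM11, a subunit of the U7 particle that cuts histone mRNA, fell (-0.42 ± 0.06, adjusted p = 0.00219), and its partner subunit LSM10 rose (0.41 ± 0.07, adjusted p = 0.00379). LSM10 had 9.72, 9.68 and 9.72 with Dll4-Fc and 9.38, 9.33 and 9.17 without it, and LSM11 had 8.30, 8.41 and 8.36 with Dll4-Fc and 8.84, 8.79 and 8.70 without it. These subunits of 1 particle thus moved in opposite directions, each without overlap. MIF4GD, which aids translation of histone mRNA, fell by 0.35 ± 0.06 on the log2 scale. So did CASP8AP2 (FLASH), a factor of the histone locus body, with -0.35 ± 0.06, though its unshared probe set gave -0.20 (adjusted p = 0.219). NPAT, the coactivator of histone genes in S phase, fell by 0.32 ± 0.08 (adjusted p = 0.0211). This call was lost without Dll4-Fc replicate 1 (0.0519), untreated replicate 1 (0.0686) or untreated replicate 2 (0.0676), or with the replicate block (0.0538). SLBP, the protein that binds the stem-loop, differed by -0.08 ± 0.05 (adjusted p = 0.337).

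The second list holds chaperones that hand new histones to replicating DNA. Of 17 measured genes 9 were lower and 0 higher, with a median of -0.20. CDAN1, which binds the chaperone ASF1, fell by 0.57 ± 0.07 on the log2 scale (adjusted p = 0.000809; -0.22, adjusted p = 0.167, as the mean of its probe sets). ASF1B and ASF1A, the chaperones for new H3 and H4, fell by 0.45 ± 0.06 and 0.41 ± 0.07, the helicase subunit and histone binder MCM2 by 0.38 ± 0.05, and TONSL, which recognises new H4, by 0.34 ± 0.08. The call of TONSL was lost without Dll4-Fc replicate 1 (0.0628), Dll4-Fc replicate 2 (0.0616) or untreated replicate 2 (0.0662). ASF1B had 9.42, 9.50 and 9.54 with Dll4-Fc, against 10.02, 9.92 and 9.90 without it. CHAF1A, a subunit of the assembly factor CAF-1, differed by -0.17 ± 0.06 (adjusted p = 0.0832).

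The third list holds chaperones and exchange factors for variants. Of 16 measured genes 6 were lower and 0 higher, with a median of -0.13. UBN2, a subunit of the HIRA complex that deposits H3.3, fell by 0.48 ± 0.07 (adjusted p = 0.00179), the H3.3 factor ATRX by 0.36 ± 0.06, HJURP, the chaperone of the centromeric H3, by 0.33 ± 0.07, DAXX, the partner of ATRX, by 0.22 ± 0.07 (adjusted p = 0.0452) and VPS72, which binds H2A.Z, by 0.21 ± 0.06. VPS72 did not pass with the replicate block (0.106), cyclic loess (0.0532) or median centring (0.0571), or without either of Dll4-Fc replicates 1 and 2 or untreated replicates 1 and 2 (0.0837 to 0.113). HJURP did not pass without Dll4-Fc replicate 1 (0.0595) or 2 (0.0578), or untreated replicate 2 (0.0551). DAXX did not pass without Dll4-Fc replicate 1 (0.15) or 2 (0.136), or without untreated replicate 1 (0.132) or 2 (0.117). With all arrays its call was also lost under the replicate block (0.122), cyclic loess (0.0743) and median centring (0.0676). HIRA itself differed by 0.12 ± 0.05 (adjusted p = 0.15) and ANP32E, which removes H2A.Z, by 0.09 ± 0.05 (0.308).

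**Figure D4:**
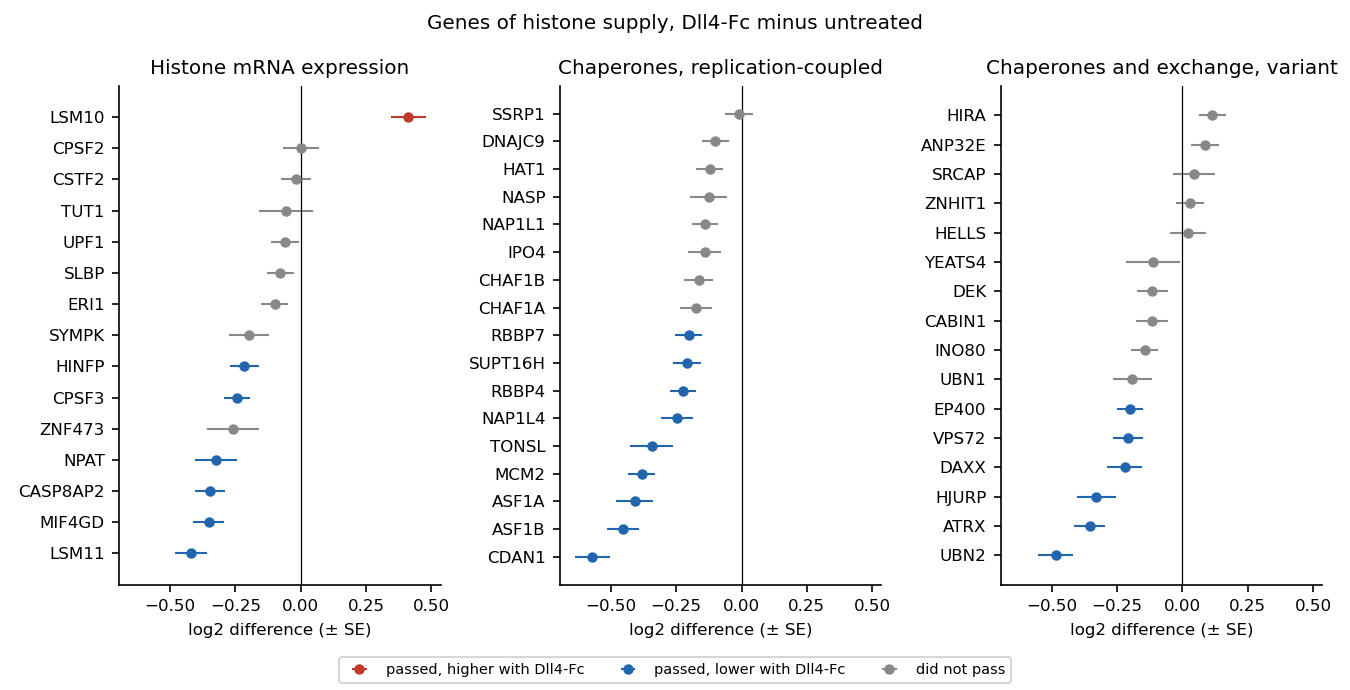
Difference of log2 intensity, Dll4-Fc minus untreated, for the measured genes of the 3 lists of histone supply; points are limma estimates from 3 arrays per group and bars are standard errors. LSM10 is the only gene that passed as higher, at 0.41, and 21 genes passed as lower, between -0.20 and -0.57.

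Of 29 measured genes of S phase and DNA replication, all above the median signal, 15 were lower, 0 were higher and 14 did not pass, with a median of -0.20. Among all genes above that signal 21.3% were lower and 16.0% higher. PRIM1, the primase subunit, fell by 0.46 ± 0.06 and TK1, thymidine kinase, by 0.43 ± 0.06. Their part in the histone results was not tested.

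The correlation of arrays, r, was 0.997 to 0.999 inside each group, and 0.981 to 0.985 for arrays of different groups. All 9 measured genes of myeloid identity had a mean signal above the median probe set, and all passed, 6 as higher and 3 as lower with Dll4-Fc. Among all genes above that signal 16.0% passed as higher and 21.3% as lower. Higher were CD14 (10.62 with Dll4-Fc and 4.98 without it, in mean log2 signal), LYZ (13.87 and 11.87), CSF1R (9.47 and 7.72), ITGAM (9.64 and 7.93), PTPRC (12.29 and 11.68) and SPI1 (7.51 and 7.19). Lower were KIT (6.12 and 8.16), MPO (5.86 and 6.65) and CEBPA (12.08 and 12.28). CD14 was below the median probe set in untreated cells. Of 8 measured markers of other cell types 5 lay below the median probe set. HBB (6.52 with Dll4-Fc and 6.74 without it) and COL1A1 (7.91 and 7.82) lay above it and did not pass. PECAM1, which myeloid cells also make, lay above it too and was higher with Dll4-Fc.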

How the data were processed

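The authors deposited linear intensities for every probe set, which RMA (background correction, quantile normalization and probe summary) produced, per the submitters' processing notes. The version of RMA is not given in the sources used. The deposited intensities ranged from 5.87 to 28188 for 54675 probe sets, and were taken to log2 without a floor or filter. Gene names came from the platform annotation (41097 probe sets with exactly 1 symbol), and each of 19775 genes was represented by its probe set with the highest mean. Differences were tested by limma 3.58.1 under R 4.3.3 (lmFit, eBayes, 2-sided, Benjamini-Hochberg over all genes). The procedure was also run on simulated data with planted changes. No call given here rests on that run. Classes of histones were set by name, and pseudogenes and the antisense RNA were set aside by RefSeq biotype. Of 3 pairs of members compared by exact permutation over the 20 ways to choose 3 of 6 arrays, that of H2BC12 and H2BC11 is not given because H2BC11 is dim. The members and lists were chosen with earlier results of these data known. Named are all variant members, the passing replication-linked members and the 8 brightest, and up to 5 passing genes per supply list with 8 fixed by name. A few genes lacked a single-symbol probe set and are not analysed here. Precision is limited by having 3 arrays per group (median standard error 0.075). Probe sets ending in _s_at, _x_at or _a_at count as shared between transcripts; histone genes resemble each other closely, so cross-hybridization between them is possible. Alternatives were the replicate block, the mean of probe sets, leaving out shared probe sets or dim genes, cyclic loess, median centring, a trended robust prior, array weights and leaving out each array.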

Additional observations from a re-analysis of the deposited data

How the results depend on the processing

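The result of H2BC12, H2BC12L, H2BC21 and H1-5 kept its direction and its side of the threshold under every alternative that measured it. The calls of H2BC5, H4C8, H2AZ2, MACROH2A2 and H1-10 were lost under some alternatives. Of these genes only H4C8 also changed direction. H4C8 turned to 0.030 with the mean of probe sets and 0.24 without shared probe sets, where its other probe set enters. Without shared probe sets 1 replication-linked gene of 33 was higher and 1 lower, and without dim genes 0 of 13 were lower and the median was 0.089; fewer genes were tested in both. With every probe set on its own 1 replication-linked gene was lower. The variant median was -0.052 when probe sets were averaged, -0.056 without shared probe sets and -0.026 with every probe set on its own. Cyclic loess gave 1 variant gene higher and 1 lower, array weights 1 higher. Of the supply genes 2 were higher with the mean of probe sets, cyclic loess and the trended robust prior, and their median was -0.12 under cyclic loess. The median of all genes was -0.034 without dim genes and 0.012 under cyclic loess. Higher genes made up 43.7% of all that passed, against 53.7% under cyclic loess and 42.2% under median centring. The cause of these shifts was not tested. The deviations of same-numbered samples showed no clear positive correlation (r = 0.01, -0.21 and -0.15). With few arrays per group, set to a common distribution, these values cannot decide whether same-numbered samples were grown or processed together. Pairing by number therefore stays undecided, and with the replicate block 1 replication-linked and 0 variant genes were lower, and 11 supply genes. Leaving out 1 array gave 1 to 2 replication-linked genes lower with a median of -0.060 to -0.017, 0 to 2 variant genes lower, 0 to 1 higher and a median of -0.0020 to 0.034, 10 to 23 supply genes lower, and 1850 to 3189 of all genes lower with a median of -0.027 to -0.0053. Signal near background limits what the 32 dim coding members can show, and RMA limits what a change shared by all genes can show.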

Other observations

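Histone probe sets with several symbols, which name no single gene, numbered 28 and were fitted with all 54675 probe sets, of which 7.21% were higher and 9.25% lower. Of the 28, 2 were higher and 2 lower, with a median difference of -0.07. Both that were higher carry the pair H2AC18 and H2AC19, adjacent copies of an H2A gene. On the first, the log2 signal was 10.51, 10.61 and 10.53 with Dll4-Fc, against 10.01, 10.03 and 10.01 without it, a difference of 0.53 ± 0.06 (limma adjusted p = 0.000893). On the second it was 9.19, 9.25 and 9.07 with Dll4-Fc, against 8.72, 8.68 and 8.63 without it, a difference of 0.49 ± 0.07 (limma adjusted p = 0.00274). The remaining, dimmer probe set of the pair gave -0.08 ± 0.08 (0.621). H2BC21, which rose by 0.67, lies next to H2AC19 but for 1 gene on chromosome 1.

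A bright probe set common to 14 H4 genes was lower, with 13.39, 13.43 and 13.41 with Dll4-Fc against 13.73, 13.67 and 13.63 without it (-0.27 ± 0.06, limma adjusted p = 0.0233). The other 4 probe sets with the same symbols did not pass, at 0.06, -0.18, -0.14 and -0.07. The other lower one carried H2BC11 and H2BC8 (-0.36 ± 0.09, limma adjusted p = 0.0338). The 8 probe sets of the H3.3 genes lay between -0.11 and 0.13, and none passed. These probe sets were chosen for mention after their values were seen.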
